A study of Homo sapiens with 16 samples.

Results

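The Ras association domain family (RASSF) comprises 10 genes, RASSF1 to RASSF10, and its expression was followed on 16 arrays of GIST T1 cells, one of which carries the label RASSF8. Members were taken by gene symbol from the annotation of the transcript clusters, the groups of probes that the array summarizes into 1 value per gene. Of the 22011 clusters, 9 were annotated to a single family member, 1 for each of RASSF1 to RASSF9, and no cluster was annotated to RASSF10. None of the 9 clusters was shared with another gene. Differences between arrays were taken only within a cluster, since different probe sets do not share a scale. Where a cluster is called dim or brighter, it was set against other clusters of the same arrays, which is only a rough guide.

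GIST T1 is a human gastrointestinal stromal tumor cell line that carries an activating KIT mutation, and it was grown in DMEM with serum. Each of 14 arrays held RNA from cells transfected with 50 nM siRNA against 1 gene, and 2 arrays held RNA from cells given the nonsilencing control siRNA (siCON), labelled 24 h and 72 h. The silenced genes were 4 that encode no zinc finger protein of this kind (RASSF8, IGFBP2, IGF2R and GTF2I) and 10 zinc finger genes (ZNF708, ZNF665, ZNF528, ZNF431, ZNF429, ZNF254, ZNF100, ZNF91, ZNF85 and ZNF43), all of which came from a screen for genes whose loss sensitizes these cells to imatinib. Every knockdown was measured on 1 array of 1 cell line, so no single knockdown has a replicate. The sources used here do not say how long after transfection these cells were harvested.

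RASSF proteins are adaptors without known enzymatic activity, built around a domain that binds Ras-type small GTPases. In the members of the C-terminal group, RASSF1 to RASSF6, that domain lies toward the end of the protein and is followed by a SARAH helix that docks on the MST kinases of the Hippo pathway. The members of the N-terminal group, RASSF7 to RASSF10, carry the Ras association domain near their start and lack the SARAH helix. Several members are known as tumor suppressors whose promoters become methylated in human cancers, RASSF1 foremost among them, and RASSF8 has been linked to cell-cell junctions and to NF-kappaB signaling.

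Because CpG methylation of promoters is the best-known route by which RASSF genes are silenced in tumors, the sequence around the transcription starts of the family was taken from RefSeq (GRCh38.p14). Each window spans 250 bases before to 50 bases after an annotated start, and 7 of 10 members were matched, with 9 windows. RASSF7, RASSF8 and RASSF10 were not matched. The windows of the 4 paralogs whose clusters moved furthest in either direction on the RASSF8 array among the brighter members are printed below, 5′ to 3′, with every CpG in capitals. They are RASSF3 (chr12:64610245-64610544, plus strand), RASSF5 at its upstream start (chr1:206507281-206507580, plus strand), RASSF2 (chr20:4815098-4815397, minus strand) and RASSF1 (chr3:50337401-50337700, minus strand). The RASSF5 window lies at the outer end of its annotated gene. Those of RASSF1, RASSF2 and RASSF3 belong to starts inside the annotated genes, which reach upstream to 50340836, 4823608 and 64506964 on their chromosomes, and the promoters at those outer ends were not read here.
RASSF3: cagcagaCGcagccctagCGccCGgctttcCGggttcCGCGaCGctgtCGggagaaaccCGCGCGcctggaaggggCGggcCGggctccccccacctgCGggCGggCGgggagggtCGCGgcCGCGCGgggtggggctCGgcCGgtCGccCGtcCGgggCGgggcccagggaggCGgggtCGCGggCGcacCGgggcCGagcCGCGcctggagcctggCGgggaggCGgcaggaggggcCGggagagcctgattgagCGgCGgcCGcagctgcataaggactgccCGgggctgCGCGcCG
RASSF5: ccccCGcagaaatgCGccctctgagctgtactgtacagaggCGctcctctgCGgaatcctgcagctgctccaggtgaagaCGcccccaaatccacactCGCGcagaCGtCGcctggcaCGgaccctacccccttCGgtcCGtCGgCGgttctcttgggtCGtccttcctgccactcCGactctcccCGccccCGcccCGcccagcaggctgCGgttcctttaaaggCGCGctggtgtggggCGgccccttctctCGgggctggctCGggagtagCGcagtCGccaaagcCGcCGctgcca
RASSF2: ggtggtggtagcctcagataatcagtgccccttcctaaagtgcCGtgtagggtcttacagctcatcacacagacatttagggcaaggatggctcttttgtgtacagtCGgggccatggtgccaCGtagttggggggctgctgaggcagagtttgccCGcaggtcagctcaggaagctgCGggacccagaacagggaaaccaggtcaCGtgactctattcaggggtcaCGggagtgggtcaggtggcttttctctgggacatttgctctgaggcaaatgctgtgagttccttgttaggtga
RASSF1: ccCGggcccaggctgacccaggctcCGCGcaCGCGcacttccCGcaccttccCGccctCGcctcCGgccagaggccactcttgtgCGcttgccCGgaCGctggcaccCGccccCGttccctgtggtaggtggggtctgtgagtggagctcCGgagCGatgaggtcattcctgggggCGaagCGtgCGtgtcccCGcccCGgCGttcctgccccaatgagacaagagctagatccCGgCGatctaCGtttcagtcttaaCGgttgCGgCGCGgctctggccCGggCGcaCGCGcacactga
RASSF3 had 45 CpG in its window at 81.0% G and C, and RASSF1 had 33 at 69.7%. RASSF5 had 29 CpG at its upstream start and 15 at its downstream start, while the internal RASSF2 start had 7. A window was called CpG-rich when G and C exceeded 50% and the CpG count exceeded 0.6 of that expected from its base composition. By that rule 4 of the 9 family windows were CpG-rich, those of RASSF1, RASSF3, RASSF4 and the upstream start of RASSF5, beside 46.8% of all 35097 windows of this length. The GC box GGGCGG, searched on both strands, occurred in 6 of the 9 windows and in 44.9% of all windows. The windows not called CpG-rich were those of RASSF2, both starts of RASSF6, RASSF9 and the downstream start of RASSF5. All of these fell short of the CpG limit. Only RASSF9 (48.7%) and 1 start of RASSF6 (42.7%) were also short of the limit for G and C. Methylation was not analysed here.

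The arrays were first checked for the cell type and for the comparability of their values. Of the 6 GIST genes listed, 5 were measured, and KIT, the receptor kinase that drives these tumors, stood at 13.27 ± 0.19 in the knockdowns (SD, n = 14) and at 13.35 in siCON cells (mean, n = 2). None of the 5 was called between knockdowns and siCON by the limma test described below, beside 0.541% of all clusters. ETV1 differed most, at 11.74 ± 0.23 in knockdowns and 11.12 in siCON cells (0.62, limma adjusted p = 0.109). CD34, PRKCQ, KIT and ANO1 differed by 0.20, 0.18, −0.09 and 0.01. Of 11 listed genes of epithelial, leukocyte, endothelial and smooth muscle cells 9 were measured, and 5 of these (EPCAM, CDH1, PTPRC, CD3E and PECAM1) were below the lower quartile of their array on every array. The others were below it on 0 arrays, with knockdown means of 7.75 for KRT19, 7.62 for DES, 6.96 for MYH11 and 6.60 for CDH5. Of the 9 measured, EPCAM was the only one called in knockdowns. It was lower there (−0.78, limma adjusted p = 0.0421), at dim values of 4.17 ± 0.09 in knockdowns and of 4.39 and 5.50 in siCON cells. Its difference was −0.23 without the 72 h siCON array and −1.34 without the 24 h one, and the call was lost under 13 of 21 alternatives. The lower quartile lay between 6.13 and 6.42 across arrays and the median between 7.75 and 7.87, all on the log2 scale. The spread of values over clusters (SD) was 2.16 to 2.27 on the knockdown arrays and 2.26 to 2.27 on the siCON arrays, with 2.19 on the RASSF8 array. The IGF2R and ZNF429 arrays stood apart, as they gave the highest or the lowest of the 16 values for 33.0% and 20.2% of all clusters.

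RASSF8 was lowest on the array of its own knockdown. The RASSF8 cluster read 7.00 on the RASSF8 array. On the other 13 knockdown arrays it lay between 7.48 (IGFBP2 knockdown) and 8.70 (ZNF43 knockdown) with a mean of 8.25 ± 0.33 (SD), and in siCON cells it read 8.30 and 8.39. The RASSF8 array therefore lay below all 15 other arrays. Its log2 difference was −1.34 from the siCON mean, a linear level of 39.5%, and −1.25 from the mean of the other knockdowns, a linear level of 42.2% and −3.74 of their SDs. Among the 22011 clusters RASSF8 ranked 53 from the lowest by its difference from the other knockdowns and 188 by its difference from siCON. In RNA of whole cultures, fewer expressing cells and less RNA per cell cannot be told apart.

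Low RASSF8 signal was not particular to its own knockdown. The IGFBP2 knockdown read 7.48, a log2 difference of −0.87 from the siCON mean, and the ZNF429 knockdown read 7.87 (−0.47). IGFBP2 encodes an insulin-like growth factor binding protein. RASSF8 was below both siCON values on 9 of the 14 knockdown arrays, its own array among them, and above both on 5. Its SD over the 14 knockdowns, again with its own array, was 0.46, larger than that of 94.4% of all clusters, against a median of 0.21. Over the other 13 knockdown arrays its SD was 0.33.

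**Figure D1:**
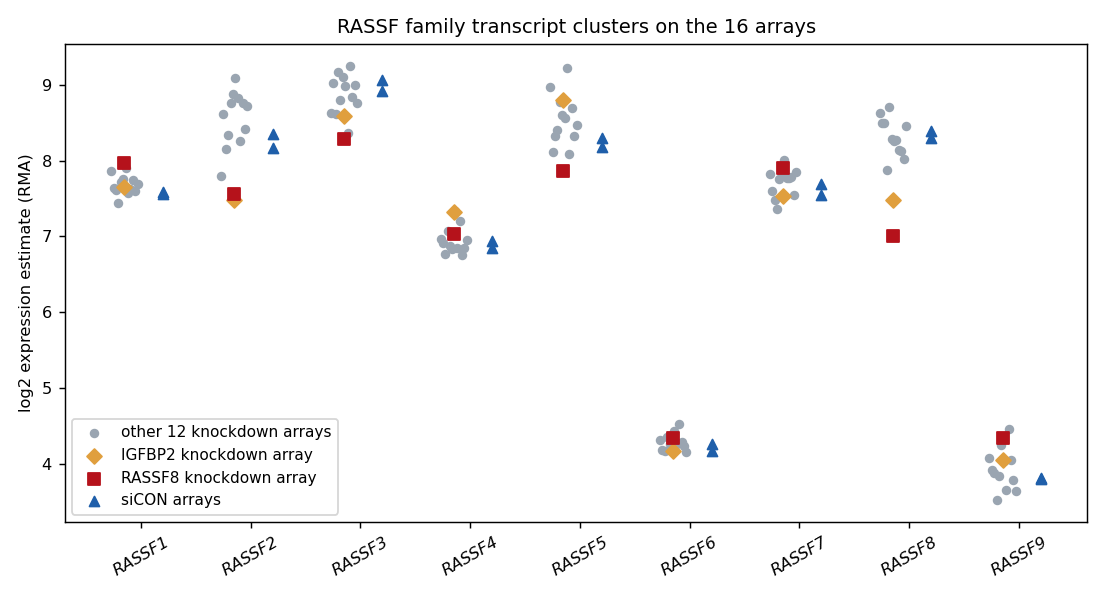
Log2 expression estimates of the 9 RASSF clusters (horizontal axis, 1 column per gene) on the 14 knockdown arrays (red square RASSF8, orange diamond IGFBP2, grey circles the other 12) and, to their right, the 2 siCON arrays (blue triangles). The RASSF8 array is lowest for RASSF3, RASSF5 and RASSF8 and highest for RASSF1, while RASSF6 and RASSF9 lie near 4 on every array.

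The paralogs were then read on the RASSF8 array, beginning with the C-terminal group. Of these 6 members RASSF2, RASSF3 and RASSF5 lay below the siCON mean on that array, by up to 0.71 on the log2 scale, and RASSF1, RASSF4 and RASSF6 lay above it by up to 0.39, although RASSF4 turned to −0.05 when the arrays were quantile-normalized. With 1 RASSF8 array there is no test of these differences, and the values below are descriptions of that array.

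RASSF3, a member that in human cells has been tied to p53 stability, read 8.29 on the RASSF8 array. The other knockdowns lay between 8.37 (ZNF254) and 9.25 (ZNF431), averaging 8.86 ± 0.26 (SD, n = 13), and siCON cells read 9.06 and 8.92. The RASSF8 array was the lowest of the 16, close to the ZNF254 array, and its difference was −0.70 from siCON and −0.57 from the other knockdowns. RASSF5 encodes NORE1 and, from a second start, RAPL, which binds Rap1 in lymphocytes. It read 7.87 on the RASSF8 array. The other 13 knockdown arrays ranged between 8.09 (ZNF431) and 9.23 (ZNF254) around a mean of 8.57 ± 0.33, and siCON cells read 8.18 and 8.30. RASSF5 too was lowest on the RASSF8 array, at −0.37 from siCON and −0.70 from the other knockdowns. The single RASSF5 cluster does not separate the transcripts of its starts.

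RASSF2, which binds K-Ras and keeps MST kinases stable, read 7.55 on the RASSF8 array. On the other knockdown arrays it averaged 8.47 ± 0.46 (SD, n = 13) and reached 9.09 in the IGF2R knockdown, and siCON cells read 8.35 and 8.17. Its difference was −0.71 from siCON and −0.92 from the other knockdowns, yet the RASSF8 array was only the second lowest. The IGFBP2 array read 7.47 and the GTF2I array 7.80, so 3 of the 4 knockdowns of genes other than zinc finger genes were below every zinc finger array, the lowest of which was ZNF100 at 8.15. RASSF2 had the largest spread of the family, with an SD of 0.50 over the knockdowns, larger than 96.2% of clusters.

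RASSF1, the founding tumor suppressor of the family, went the other way. It read 7.96 on the RASSF8 array, against 7.44 to 7.90 on the other knockdown arrays (mean 7.68 ± 0.12, SD) and 7.58 and 7.56 in siCON cells. The RASSF8 array was the highest of the 16, at 0.39 above siCON and 0.29 above the other knockdowns. The next arrays were IGF2R at 7.90 and GTF2I at 7.86. Those arrays also had a narrow spread of values over all clusters (SD 2.19 for RASSF8, 2.16 for IGF2R and 2.20 for GTF2I, with 2.26 or more for siCON). The ZNF431 and ZNF85 arrays were similarly narrow (2.18 and 2.19), with RASSF1 at 7.62 and 7.76. The part of this spread in the RASSF1 values was not tested. The RASSF1 isoforms are read by 1 cluster and cannot be told apart here.

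RASSF4 and RASSF6 lay within the range of the other arrays. RASSF4 read 7.04, within the 6.75 to 7.33 of the other knockdowns and 0.14 above siCON. RASSF6 read 4.34, within 4.15 to 4.52 and 0.13 above siCON, and it was below the lower quartile of its array on all 16 arrays. Its values changed by no more than 0.37 between any 2 arrays, and its SD over knockdowns was larger than that of 4.6% of clusters.

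In the N-terminal group, the measured relatives of RASSF8, RASSF7 and RASSF9, were not lower on its array, and RASSF10 had no cluster. RASSF7, which in human cells acts on microtubules at mitosis, read 7.90 on the RASSF8 array, where the other knockdowns lay between 7.36 and 8.00 and siCON cells read 7.55 and 7.70. RASSF9, which binds the enzyme PAM on recycling endosomes, read 4.33, with 3.51 to 4.46 on the other knockdown arrays and 3.79 and 3.80 in siCON cells. Both were second highest of 16, behind the IGF2R array for RASSF7 and behind the ZNF431 array for RASSF9. RASSF9 was below the lower quartile of its array on all 16 arrays, so its difference of 0.53 from siCON is one between dim values. A decrease of RASSF9 would be hard to see at that level.

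**Figure D2:**
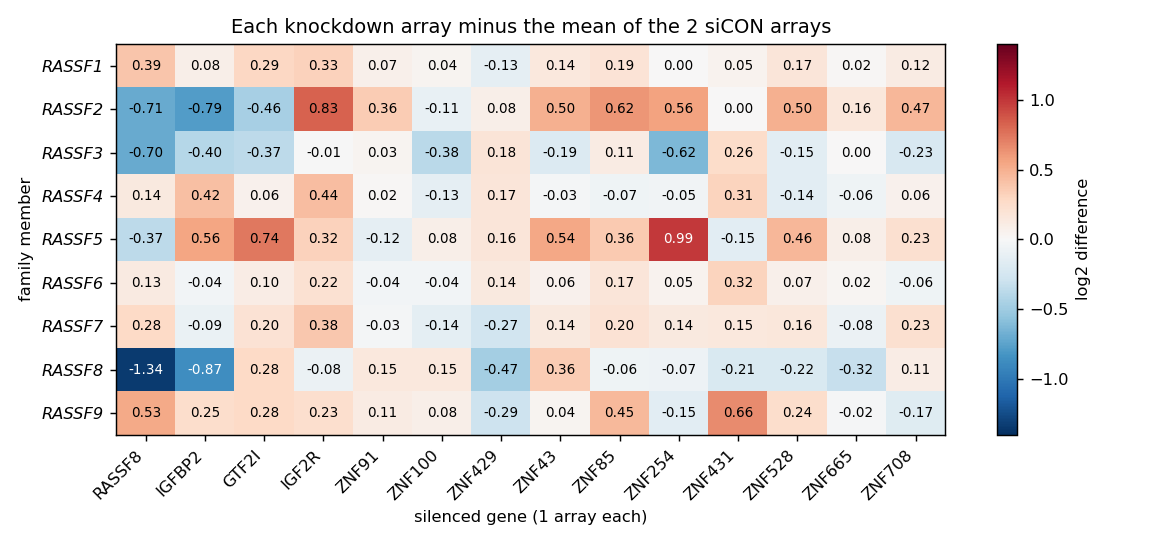
Log2 difference of each knockdown array (columns, RASSF8 first) from the mean of the 2 siCON arrays for the 9 family members (rows), blue for lower and red for higher. In the RASSF8 column RASSF8 stands at −1.34, RASSF2 at −0.71, RASSF3 at −0.70 and RASSF5 at −0.37, and RASSF9 is the largest increase at 0.53.

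Set against all clusters, the family differed from siCON by a 2-fold change in 1 case. Of the 9 members, 1 (RASSF8 itself) was lower by at least 1 on the log2 scale on the RASSF8 array, as were 2.85% of all clusters, and 0 were higher by that much, as were 0.727%. None of the 8 paralogs reached it, the largest being RASSF2 at 0.71 in size. Members were the lowest of 16 on the RASSF8 array in 3 of 9 cases (33.3%), against 6.66% of all clusters, and the highest in 1 of 9 (11.1%), against 7.42%. Leaving out RASSF8, 2 of the 8 paralogs were lowest and 1 was highest. Without the IGF2R and ZNF429 arrays the same members were lowest, and RASSF7 joined RASSF1 as highest, beside 8.78% and 16.4% of all clusters. A difference of at least 0.5 from the other knockdowns was present for 4 of 9 members (44.4%) and for 8.61% of all clusters. Again 1 of these 4 is RASSF8 itself, and the others are RASSF2, RASSF3 and RASSF5.

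The paralogs lay on both sides of the other arrays. Their median difference from the other knockdowns was 0.06, beside 0.05 for all clusters, while the median size of their differences was 0.34, beside 0.19. As large a difference as that of RASSF2 was seen for 1.17% of clusters, as that of RASSF5 for 3.31%, as that of RASSF3 for 6.16% and as that of RASSF1 for 29.5%. These shares take no account of how variable a cluster is. The SDs of RASSF2, RASSF5, RASSF3 and RASSF1 over knockdowns were larger than those of 96.2%, 87.4%, 75.6% and 13.7% of clusters. In SDs of the other 13 knockdown arrays, their differences were −1.99, −2.11, −2.18 and 2.34. Other arrays held several extreme members as well. The IGF2R array was the highest for RASSF2, RASSF4 and RASSF7, the ZNF431 array the highest for RASSF3, RASSF6 and RASSF9, and the ZNF429 array the lowest for RASSF1, RASSF7 and RASSF9. The RASSF8 array was beyond all others for 4 of 9 members with 14.1% of clusters, and the ZNF431 array for 3 of 9 with 12.7%.

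Differences between the siCON arrays show how far these clusters moved with no gene silenced. RASSF2 differed most among the members, by −0.19 at 72 h relative to 24 h, and 26.5% of all clusters differed by that much or more. The 24 h and 72 h arrays are single arrays, so time and array cannot be told apart. The paper names a later hour for the earlier control than its label does.

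The study asked what the silenced genes have in common, and the 14 knockdowns were therefore compared with siCON as a group in limma, with Benjamini-Hochberg adjustment over all clusters. No family member passed the test. At an adjusted p of 0.05, 0 of 9 members were called, where 119 of 22011 clusters (0.541%) were, and 0 of 9 had an unadjusted p under 0.05, as 14.7% of all clusters did. The pooled-variance test of the methods called 0 of 9 as well. The 119 called clusters (62 lower, 57 higher, and 80 and 34 with median centring) became 8 lower and 5 higher without the 24 h siCON array, and 2 lower and 0 higher without the 72 h one, again with no member among them. The error in this comparison is mostly the spread between different knockdowns. No source states whether the siCON RNAs were made in separate cultures, so the spread between the siCON arrays may be technical.

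RASSF5 had the largest difference of the family in the values as deposited, though not with median centring (0.23, and −0.23 for RASSF8) or without the 24 h siCON array (0.22, and 0.24 for RASSF2). It stood at 8.52 ± 0.37 in knockdowns (SD, n = 14) and 8.24 in siCON cells. It was above both siCON values in 11 of 14 knockdowns, and its log2 difference of 0.28 had a 95% interval of −0.24 to 0.79 (limma adjusted p = 0.525). RASSF1 was above both siCON values in 12 of 14 knockdowns, with a difference of 0.13 (−0.11 to 0.37, limma adjusted p = 0.528). RASSF3 was below both in 8 of 14, at −0.18 (−0.60 to 0.25, limma adjusted p = 0.616). RASSF8 also differed by −0.18 (−0.82 to 0.45, limma adjusted p = 0.733), and by −0.10 when its own array was left out. These intervals allow changes of up to 0.84 in size, the bound for RASSF2, whose difference was 0.14.

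The remaining members differed by 0.08 to 0.16, and the adjusted p of the 9 members ran between 0.525 and 0.811. In all, 7 members were higher and 2 lower in knockdowns, beside 59.4% of clusters that were higher, although RASSF4 turned to −0.03 when the arrays were quantile-normalized. The median difference was 0.09 for the members and 0.07 for all clusters.

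**Figure D3:**
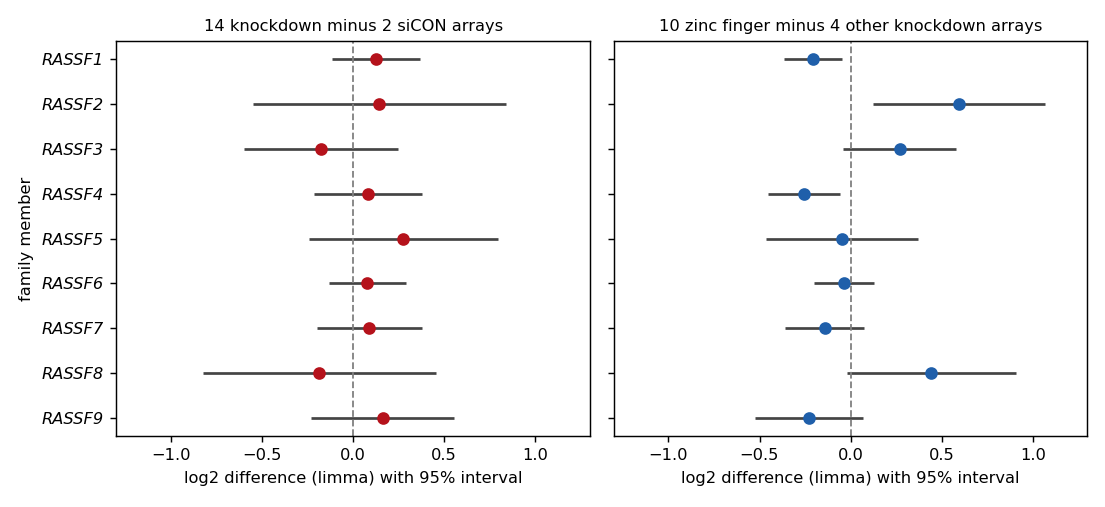
Fitted log2 differences with 95% intervals (limma) for the 9 family members, for 14 knockdown minus 2 siCON arrays (left) and 10 zinc finger minus 4 other knockdown arrays (right). On the left every interval crosses 0, and on the right those of RASSF1, RASSF2 and RASSF4 do not, although none of the 3 passed adjustment over all clusters. In the fit of the right panel without the RASSF8 array (not drawn), only the interval of RASSF4 did not cross 0.

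Within the knockdowns, the 10 zinc finger genes were compared with the 4 other genes. At an adjusted p of 0.05, 0 of 9 members and 0 of 22011 clusters (0.0%) were called by limma, and the pooled-variance test called 3 clusters, none of them a member. At an unadjusted p under 0.05 stood 3 of 9 members, RASSF1, RASSF2 and RASSF4, and 4369 of the 22011 clusters (19.8%). In the fit without the RASSF8 array this held for 1 of 9 members, RASSF4, beside 12.1% of all clusters. RASSF2 averaged 8.57 ± 0.26 in zinc finger knockdowns (SD, n = 10) and 7.98 ± 0.75 in the others (n = 4), a log2 difference of 0.59 (95% interval 0.12 to 1.07, limma adjusted p = 0.198). The 4 others were split, with IGF2R at 9.09, above every zinc finger array, and GTF2I, RASSF8 and IGFBP2 at 7.80, 7.55 and 7.47, below every zinc finger array. Without the IGF2R array the difference was 0.96 (limma adjusted p = 0.0857). It was smaller without the RASSF8 array, at 0.45 (limma adjusted p = 0.4435), and without the IGFBP2 array, at 0.43 (limma adjusted p = 0.2355).

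RASSF1 averaged 7.64 ± 0.09 in zinc finger knockdowns and 7.84 ± 0.13 in the others, a log2 difference of −0.21 (limma adjusted p = 0.197). That difference was −0.17 without the RASSF8 array (limma adjusted p = 0.427). Without the IGFBP2 array it was −0.27 and passed the threshold (limma adjusted p = 0.028, within a range of 0.028 to 0.558 over the alternatives), but that fit also called 2618 clusters lower and 758 higher. RASSF4 averaged 6.91 ± 0.14 in zinc finger knockdowns and 7.16 ± 0.19 in the others, a log2 difference of −0.26 (limma adjusted p = 0.197). The high RASSF4 arrays among the others were IGF2R at 7.33 and IGFBP2 at 7.32. RASSF8 differed by 0.44 with its own array in the fit and by 0.16 without it (limma adjusted p = 0.267 and 0.730), and by 0.71 without the GTF2I array (limma adjusted p = 0.291).

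The partners of the family were read on the same arrays from lists chosen by function. In the Hippo pathway, whose MST kinases (STK3 and STK4) pair with the SARAH helix of the C-terminal members, 14 of 15 listed genes were measured. In knockdowns as a group 1 of 14 was called, beside 0.541% of all clusters, and it was lower, WWC1, the KIBRA scaffold upstream of the kinases, with 8.13 ± 0.25 in knockdowns and 8.92 in siCON cells (−0.79, limma adjusted p = 0.0483). The WWC1 call was lost under 15 of 22 alternatives, the fits without either siCON array or without the RASSF8 array among them (adjusted p up to 0.682), while its difference stayed between −0.76 and −0.81 with 1 siCON array left. On the RASSF8 array 4 of the 14 were the lowest of 16, beside 6.66% of all clusters, and 2 the highest, beside 7.42%. MOB1A, the coactivator of the LATS kinases, read 9.77 there, against 10.17 to 11.04 on the other knockdown arrays and 10.53 and 10.32 in siCON cells. WWTR1, which encodes the coactivator TAZ, read 10.87, with 11.17 to 12.02 on the other knockdown arrays and 11.92 and 11.95 in siCON cells.

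The MST2 kinase gene STK3 was the third of the lowest, at 9.53 on the RASSF8 array against 10.04 ± 0.20 on the other knockdown arrays, and NF2, which encodes merlin, the fourth, at 8.59 against 8.85 ± 0.09. The scaffold gene SAV1 was highest at 8.96 (other knockdowns 8.47 ± 0.31), as was YAP1 at 10.19 (9.99 ± 0.11). The median of the list on the RASSF8 array was −0.17 relative to the other knockdowns, beside 0.05 for all clusters. LATS2 read 9.78 on the RASSF8 array and 10.31 ± 0.28 on the other knockdown arrays, a difference of −0.53. This was just below the lowest of those arrays (9.80), while siCON cells read 9.79 and 9.73.

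Targets of the YAP and TAZ coactivators were measured for 9 of 10 listed genes, of which 1 was called in knockdowns (0.541% of all clusters were). F3, the gene of tissue factor, was lower, at 7.75 ± 0.39 in knockdowns and 8.97 in siCON cells (−1.22, limma adjusted p = 0.0413), a call lost under 12 of 22 alternatives. With 1 siCON array left, its difference was −1.36 without the 24 h array and −1.08 without the 72 h array. On the RASSF8 array CCN2 (CTGF) differed most, with 7.75 against 8.73 ± 0.83 on the other knockdown arrays, well within their range of 7.35 to 10.11. AXL, a receptor kinase, was the highest of 16 at 7.19, and the other knockdowns reached 7.17. CRIM1 and AJUBA differed on the RASSF8 array by −0.32 and 0.21, inside the range of the others.

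**Figure D4:**
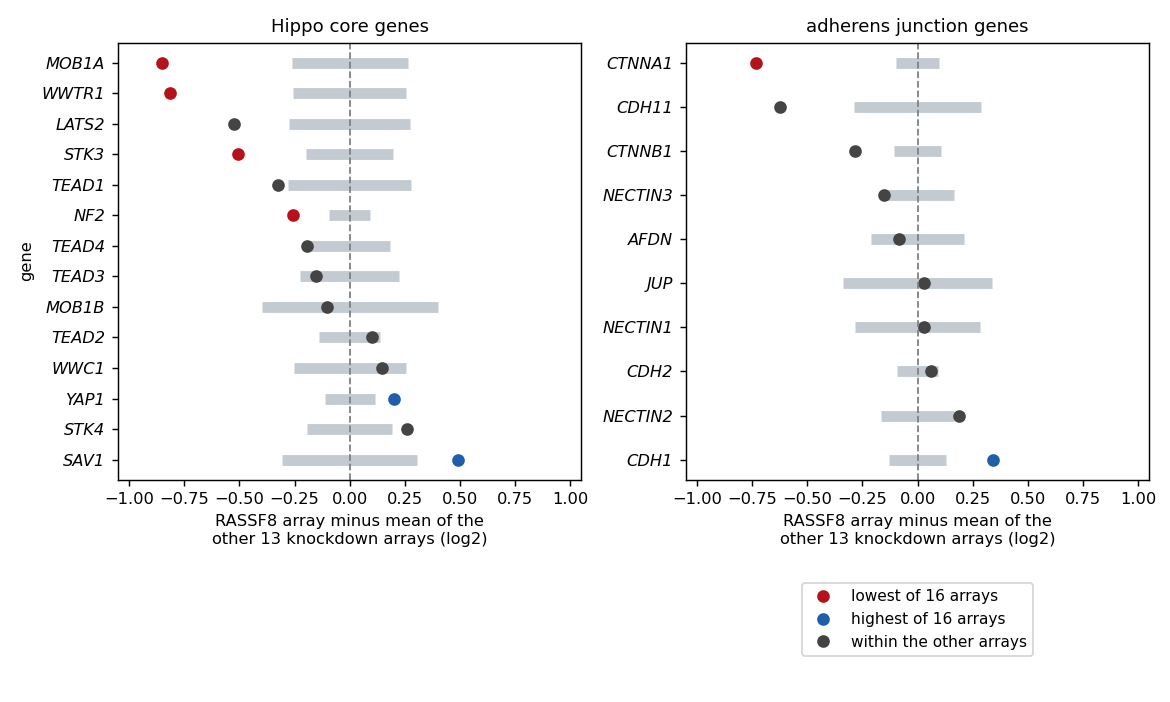
Difference of the RASSF8 array from the mean of the other 13 knockdown arrays (horizontal axis, log2) for the measured Hippo core genes (left) and adherens junction genes (right), with grey bars for ±1 SD of those 13 arrays. MOB1A, WWTR1, STK3 and NF2 on the left and CTNNA1 on the right are the lowest of the 16 arrays (red).

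Of the Ras and Rap GTPases that the Ras association domain can bind, 10 of 13 listed genes were measured. In knockdowns 0 of the 10 were called, beside 0.541% of all clusters. RAP2B came nearest, with 9.03 ± 0.22 in knockdowns and 8.39 in siCON cells (0.64, limma adjusted p = 0.0926), ahead of RRAS (0.64, limma adjusted p = 0.146). On the RASSF8 array RRAS was the highest of 16, at 10.35 against 9.54 to 10.24 on the other knockdown arrays and 9.36 and 9.22 in siCON cells. RAP1B and RAP2A differed by −0.73 and −0.54 there without lying beyond the other arrays. RAP1B was dim, at 5.41 on the RASSF8 array and below the lower quartile of its array on 8 of 16 arrays. It varied widely across the other knockdowns (SD 0.67).

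Among the known binding partners of RASSF proteins, 12 of 15 listed genes were measured and 0 were called, beside 0.541% of all clusters. MOAP1, the BH3-like protein through which RASSF1 acts on BAX, was at 8.52 ± 0.14 in knockdowns and 8.94 in siCON cells (−0.42, limma adjusted p = 0.140). CDC20 and TP53BP2 differed by −0.69 and −0.20 (limma adjusted p = 0.258 and 0.285). On the RASSF8 array PAM, the partner of RASSF9, was the highest of 16, at 10.14 against 9.22 to 10.04 on the other knockdown arrays and 9.83 and 10.01 in siCON cells. CDC20, the mitotic activator of the anaphase-promoting complex, differed by −0.53 and CNKSR1 by 0.34 within the range of the other arrays.

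RASSF8 has been placed at adherens junctions, and 10 of 11 listed junction genes were measured. In knockdowns 2 of the 10 were called, beside 0.541% of all clusters, and both were higher, the beta-catenin gene CTNNB1, at 12.34 ± 0.13 in knockdowns and 11.67 in siCON cells (0.68, limma adjusted p = 0.0084), and the cadherin gene CDH11, at 11.57 ± 0.32 and 10.46 (1.11, limma adjusted p = 0.0303). Both calls were lost without either siCON array (limma adjusted p of 0.166 and 0.505 for CTNNB1 and 0.332 and 0.682 for CDH11), with differences of 0.71 and 0.64 for CTNNB1 and of 1.20 and 1.02 for CDH11 without the 24 h and the 72 h array, and that of CDH11 also by the pooled-variance test. CTNNA1, which encodes alpha-catenin, the link between the cadherin complex and actin, read 9.94 on the RASSF8 array. The other 13 knockdown arrays lay between 10.56 and 10.84 with a mean of 10.67 ± 0.10, and siCON cells read 10.91 and 10.96. The difference of −0.73 from the other knockdowns was −7.48 of their SDs. That SD was small, beside a median of 0.21 for all clusters over the 14 knockdowns. A difference of at least 0.5 in size was present for 8.61% of all clusters. Of the 10 junction genes 1 was the lowest of 16 and 1 the highest on this single array, beside 6.66% and 7.42% of all clusters. CTNNB1 and CDH11 read 12.08 and 10.99 on the RASSF8 array, below their means on the other knockdown arrays of 12.36 and 11.61 and above both siCON values. CDH1 was the highest of 16 on the RASSF8 array, at a dim 6.08.

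The chromosomal neighbours of RASSF8 were read to see whether the low signal on its array extended along chromosome 12. Of the 3 nearest measured genes on each side, ETFRF1, a mitochondrial LYR-motif protein gene, was also the lowest of 16 on the RASSF8 array, at 8.01. The other knockdown arrays lay between 8.01 and 9.59 with a mean of 8.94 ± 0.45, so a second knockdown was equally low, and siCON cells read 9.11 on both arrays. The nearest genes on the other side, BHLHE41, SSPN and INTS13, differed by −0.19, 0.07 and −0.07. LMNTD1 and DNAI7 differed by 0.11 and 0.01 at dim values of 4.71 and 3.58. None of the 6 was called in knockdowns as a group, beside 0.541% of all clusters.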

How the data were processed

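RNA of transfected GIST T1 cells was hybridised to 16 Affymetrix Human Exon 1.0 ST arrays. Per the methods, the authors ran RMA with oligo, and the log2 values they deposited cover 22011 gene-level clusters, with the build hg19 named in the submitters' processing notes and no versions. RMA estimates compress differences of dim clusters, and array data carry no read depth. Symbols came from the platform annotation, in which 14432 clusters carry 1 symbol, 2408 several and 5171 none, and coordinates and promoters came from RefSeq GRCh38.p14, used apart from the array build. A gene with several clusters was read from the brightest.

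Values were used as deposited. Knockdowns were compared with siCON, and zinc finger with other knockdowns (siCON kept in the fit), with lmFit and eBayes of limma 3.58.1 under R 4.3.3 (two-sided), and p was adjusted by Benjamini-Hochberg over every cluster, at a threshold of 0.05. The script was tested on simulated data. The RASSF8 array was described against the siCON mean and the other 13 knockdowns without a test. Alternatives were median centring, quantile normalization, the brightest 2 of 3 clusters, trended and robust eBayes, the methods' pooled-variance test, other folds and references, and each array left out.

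Named were all measured members, up to 3 genes per list by limma p and up to 3 by difference on the RASSF8 array, 3 neighbours on each side of RASSF8, and the 3 genes with the highest and the 3 with the lowest correlation with it. Other list genes, such as SAV1, YAP1, NF2 and AXL where outside that rule, were named after their values were seen. The members, lists and tests were chosen with earlier results of these data known. siRNA sequences were not used here. Other steps ran in Python 3.11.15 with pandas 2.3.3, numpy 2.4.6, matplotlib 3.10.9 and scipy 1.17.1.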

Additional observations from a re-analysis of the deposited data

Results flagged for a closer look

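RASSF9 stood out in the group of 4 knockdowns of genes other than zinc finger genes. It read 4.33 on the RASSF8 array, and 4.08, 4.05 and 4.03 on the GTF2I, IGFBP2 and IGF2R arrays. The gap between the RASSF8 array and its nearest neighbour was 0.847 of the range of the 4 values, above the critical value of 0.829 for 4 samples. This was 1 of 18 sets of values checked, the 9 members in each of the 2 classes of knockdown, and chance marks about 1 in 20. All 4 values were below the lower quartile of their arrays.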

How the results depend on the processing

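No member was called in knockdowns against siCON under any alternative run, and the 3 members lowest and the 1 highest on the RASSF8 array stayed so under median centring. Quantile normalization added RASSF2 to the lowest. In knockdowns against siCON, 62 clusters were lower and 57 higher. The pooled-variance test gave 31 and 33, median centring 80 and 34, and leaving out 1 array gave 2 to 81 lower and 0 to 59 higher, with 8 and 5 without the 24 h siCON array and 2 and 0 without the 72 h one. RASSF4 turned from 0.08 to −0.0276 under quantile normalization, and on the RASSF8 array from 0.14 to −0.05 against siCON and from 0.06 to −0.03 against the other knockdowns. In zinc finger against other knockdowns, the pooled-variance test called 1 cluster lower and 2 higher, and leaving out 1 array gave 0 to 2618 lower, 0 to 758 higher and 0 to 1 members, the highest counts without the IGFBP2 array. RASSF5 ranged between −0.2765 and 0.0927 (the highest without GTF2I, and 0.0332 without IGFBP2) and RASSF6 between −0.0821 and 0.0035 (without IGF2R). The list genes called in knockdowns each lost their call under 2 (CTNNB1) to 15 (WWC1) alternatives, all of them without the 72 h siCON array. The cause of these changes was not tested. Against siCON, a fold of 0.5 in place of 1 gave 2646 clusters lower and 2904 higher on the RASSF8 array, with 3 members lower and 1 higher. A fold of 1.5 gave 108 and 17 clusters, with 0 members lower. Against the 3 other knockdowns that are not zinc finger genes, RASSF1 stood at 0.16 and RASSF4 at −0.17. Without the IGF2R and ZNF429 arrays, an alternative chosen after seeing the data, the RASSF8 array was highest for 3605 clusters (16.4%) and 2 members, RASSF1 and RASSF7. Of the 6 genes most like or unlike RASSF8, Spearman's rho shared 0, and the 15 arrays without RASSF8 shared 1.

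Each member has 1 cluster, so averaging clusters changed no member. No paired analysis was possible because each knockdown is 1 array and the siCON numbers were given in accession order. RASSF6 and RASSF9 lay below the lower quartile of every array, where a change is hard to see on these arrays, and a knockdown's own replicate spread was not measured.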

Other observations

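Of 14231 genes with a single symbol, those whose pattern over the 16 arrays was most like that of RASSF8 were MYBL2, a transcription factor of proliferating cells (Pearson r = 0.88), GINS3, a subunit of the replicative helicase complex (0.87), and GOLM2, a Golgi membrane protein (0.86). All 3 were lowest on the RASSF8 array, with 9.37 for MYBL2 there against 10.35 ± 0.36 on the other 13 knockdown arrays (SD), 8.45 against 9.13 ± 0.30 for GINS3 and 8.01 against 8.85 ± 0.23 for GOLM2. Without the RASSF8 array their r was 0.80, 0.83 and 0.71. The most opposite patterns were those of TBL2 (−0.91), CCDC122 (−0.86) and SYNGR2 (−0.79), all highest on the RASSF8 array. TBL2 read 9.96 there against 9.43 ± 0.14 on the other knockdown arrays. Without the RASSF8 array their r was −0.81, −0.70 and −0.72. The arrays share 1 cell line and 1 array type, and these correlations are descriptions of genes picked from all. The RASSF8 array, by far the lowest for RASSF8, was used in picking them. Their extreme values on that array therefore follow in part from the choice.

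Among the family, r with RASSF8 over 16 arrays ran between −0.41 (RASSF4) and 0.56 (RASSF2). Without the RASSF8 array RASSF2 stood at 0.37, RASSF5 at 0.01 and RASSF3 at −0.12. ETV1, a transcription factor of GIST, read 11.23 on the RASSF8 array against 11.78 ± 0.18 on the other knockdown arrays, with a mean of 11.12 in siCON cells.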
